A study of Mus musculus with 18 samples.

Results

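The Rtl1 antisense miRNAs are cut from hairpins on the strand opposite Rtl1, a gene derived from a retrotransposon, inside the imprinted Dlk1-Dio3 locus of mouse chromosome 12. They were chosen by name, as 10 of the 1367 mature miRNAs that the deposited tables list together: mmu-miR-337-5p, mmu-miR-665-3p, mmu-miR-431-5p, mmu-miR-433-3p, mmu-miR-127-5p and mmu-miR-127-3p, mmu-miR-434-5p and mmu-miR-434-3p, and mmu-miR-136-5p and mmu-miR-136-3p, named here without the species prefix. The tables of mouse embryonic fibroblasts (MEF) list all 10 of them, and the table of B cells lists 9, without miR-665-3p. All 10 passed the minimum mean of 10 normalized counts in both MEF sets, and 7 of the 9 passed it in B cells.

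Small RNAs were sequenced in 18 libraries, all with Eu-myc given as the mouse strain, to compare cells that hold the oncogenic miR-17~92 cluster at different levels. The cluster was overexpressed (OV), deleted (d/d) or floxed and intact (fl/fl), with 3 MEF libraries of each kind and 1 library of each kind from splenic B cells. A separate MEF set of 3 libraries each held d/d cells, so that miR-17~92 is deleted in both of its groups. Its cells either overexpress miR-290~295, the main miRNA cluster of mouse embryonic stem cells, or carry the empty plasmid (Empty). The cells are described as isogenic lines. The sources used here do not say how the cluster was deleted or overexpressed, nor whether replicates were separate cultures, so p-values measure only the spread between these libraries. Libraries carry the names of the deposited columns, OV1, OV2 and OV4, DEL1 to DEL3 and FL3 to FL5, then miR-290 1 to 3 and E1 to E3, and the OV and FL columns are matched to their group but not to a numbered replicate.

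At imprinted genes only the copy from 1 parent is active. In the Dlk1-Dio3 locus the maternal chromosome makes a long noncoding transcript series from which the miRNAs are processed, while the paternal chromosome makes protein-coding RNAs such as Dlk1 and Rtl1. Because the Rtl1 antisense miRNAs come from the opposite strand of Rtl1, they can pair with its RNA without mismatch and direct its cleavage, and they are best known for holding down Rtl1 in the placenta, where the protein is needed for the fetal capillaries. The miRNAs of the locus are abundant in the embryo, the placenta and the brain. MiR-127 has the best known part in this in mouse placenta, and in human cancer cells miR-127 was described to target BCL6, while miR-431 was described to target Pax7 in mouse muscle stem cells.

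The mature sequences show how the 10 miRNAs differ from each other. They are given 5′ to 3′ from RefSeq with GRCm38.p6 positions, in order along the plus strand, and capitals mark the seed, bases 2 to 8, with which a miRNA recognises most of its targets.
miR-337-5p: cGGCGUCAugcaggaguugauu
miR-665-3p: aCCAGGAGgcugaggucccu
miR-431-5p: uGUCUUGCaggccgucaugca
miR-433-3p: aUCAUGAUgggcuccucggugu
miR-127-5p: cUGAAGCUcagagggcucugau
miR-127-3p: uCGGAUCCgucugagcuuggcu
miR-434-5p: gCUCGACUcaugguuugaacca
miR-434-3p: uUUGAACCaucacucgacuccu
miR-136-5p: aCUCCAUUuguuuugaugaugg
miR-136-3p: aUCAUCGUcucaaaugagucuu
All 10 matched a RefSeq entry, and they carry 10 distinct seeds, so they form no seed family. None of these seeds occurs in another mature mouse miRNA of the RefSeq table used.

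The 7 hairpins lie within 9600 bases, chr12:109585789-109595388 on the plus strand, while Rtl1 runs on the minus strand. Those of miR-431, miR-433, miR-127, miR-434 and miR-136, 5 of 7, lie inside the coding exon of Rtl1 as GENCODE draws it (GRCm38, chr12:109589193-109600330). The hairpins of miR-337 and miR-665 lie 3308 and 2786 bases outside that gene model, but inside the longer span that RefSeq gives to Rtl1 (chr12:109564900-109604418), so for miR-337-5p and miR-665-3p the name antisense to Rtl1 depends on the annotation. The Rtl1 transcript of 6358 bases holds 1 fully complementary site for each of the other 8 mature miRNAs, all in the coding sequence. The site of miR-127-3p is shown as the example, as DNA letters of the Rtl1 strand, 5′ to 3′, with the seed match in capitals.
Rtl1 site of miR-127-3p: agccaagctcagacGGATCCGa
It covers chr12:109592888-109592909, the bases from which miR-127-3p itself is made. Rtl1 RNA was not measured in these small RNA libraries.

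Library depth, in reads on listed miRNAs, lay between 17191892 and 24920911 for MEF of the miR-17~92 set, between 43164128 and 58911475 for those of the miR-290~295 set, and between 10203586 and 10612256 for B cells. The check of the labels held for the targeted clusters: with limma, miR-17-5p differed on the log2 scale by 1.74 in OV and −6.12 in d/d MEF, each against fl/fl MEF, and miR-294-3p of miR-290~295 by 8.35 in miR-290~295 against Empty cells. OV4 stood apart from the other OV libraries in the imprinted miRNAs. Each miRNA's log2 value in OV4, with 1 added to the count, was set against the mean of its log2 values in OV1 and OV2. The median difference of the Rtl1 antisense miRNAs was −1.27, a ratio of 0.414. That of the other Dlk1-Dio3 miRNAs was −1.18 and that of all kept miRNAs −0.04. MiR-17-5p had 13434, 9879 and 9980.1 normalized counts in OV1, OV2 and OV4. Members' log2 differences of OV MEF are therefore also given without OV4.

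MiR-127-3p led the group in every library. In RPM, the number per megaread of listed miRNA reads, not divided by length because all members are 20 to 22 bases long, it reached 2114 ± 796 in OV, 16245 ± 874 in d/d and 3576 ± 527 in fl/fl MEF (SD, n = 3 each). Behind it in fl/fl MEF came miR-434-5p with 1461 ± 203 RPM, miR-434-3p with 824 ± 84.1, miR-337-5p with 618 ± 33.2 and miR-433-3p with 279.8 ± 30.1. The lower tier was miR-127-5p with 42.3 ± 5.41, miR-136-3p with 17.1 ± 2.12, miR-431-5p with 10.6 ± 1.87, miR-136-5p with 2.42 ± 0.510 and miR-665-3p with 1.86 ± 0.559. Neighbours in this order did not overlap between fl/fl libraries except miR-136-5p and miR-665-3p at its low end. The levels thus differed widely among miRNAs that lie side by side, and they are not corrected for how well each sequence is ligated. The first 8 places were the same in all 5 MEF groups, and in d/d MEF miR-665-3p and miR-136-5p, which overlapped, changed places. In the 3 B-cell libraries miR-433-3p took the place after miR-434-5p, level with or ahead of miR-434-3p.

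The share of all listed reads that the 10 miRNAs held together shows the order of the groups. It was 0.465% in OV1, 0.465% in OV2 and 0.224% in OV4, against 3.88%, 3.44% and 3.41% in d/d MEF and 0.780%, 0.612% and 0.657% in fl/fl MEF. In the miR-290~295 set it was 1.58%, 1.77% and 1.75% with miR-290~295, against 3.40%, 3.51% and 3.44% with Empty. The shares of d/d MEF in the miR-17~92 set and of Empty MEF, also d/d, thus overlapped, and every other pair of MEF groups was apart. In B cells the 9 listed miRNAs held 0.00187% in OV, 0.0134% in d/d and 0.00360% in fl/fl cells, from at most 1412 reads. Sets were normalized separately, so levels between sets are descriptions and were not tested.

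**Figure D1:**
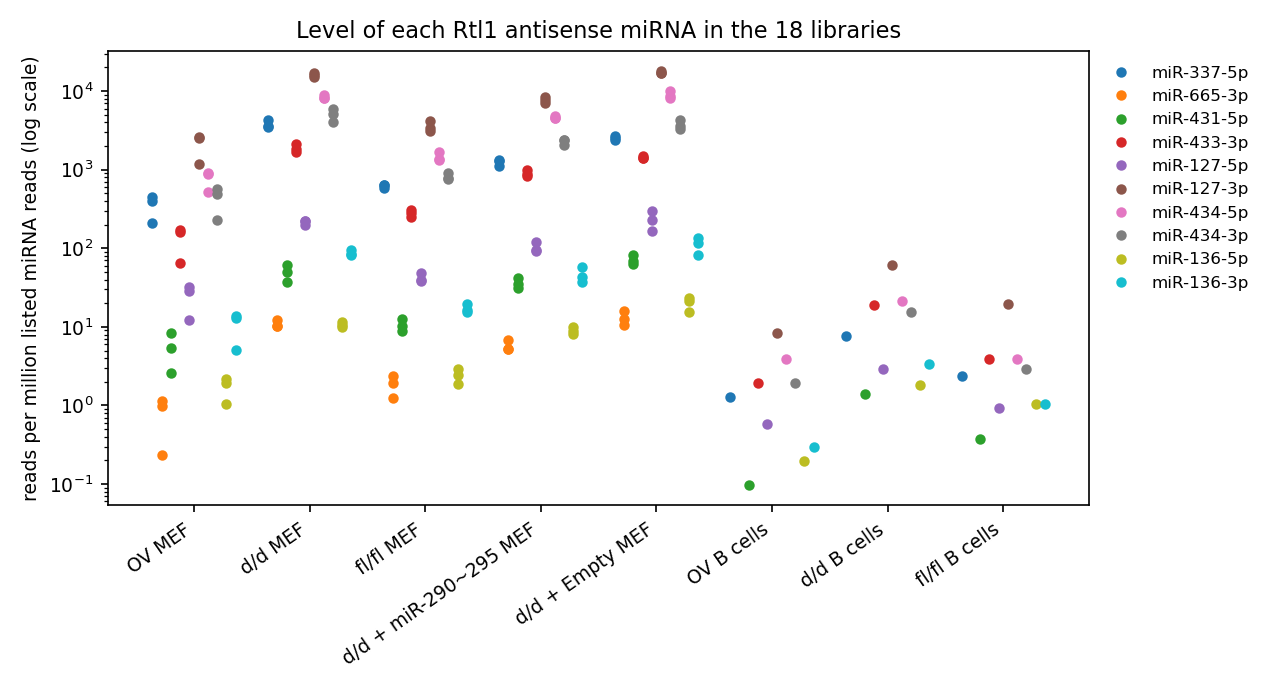
RPM of listed miRNA reads (log axis) of each Rtl1 antisense miRNA in the 18 libraries, 1 point per library, coloured by miRNA, with the 8 groups along the x axis. MiR-127-3p tops every group, and the d/d MEF of both sets stand highest. The 3 B-cell libraries lie below all MEF for each miRNA listed there except miR-136-5p. Its d/d B-cell value of 1.80 RPM lies within the OV MEF range of 1.05 to 2.16.

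In d/d MEF all 10 Rtl1 antisense miRNAs were higher than in fl/fl MEF, by 4.06 to 6.13 times. The differences ran from a log2 of 2.02 for miR-136-5p to 2.62 for miR-433-3p, with a median of 2.33. All 10 passed limma at an adjusted p below 0.05, where 30.7% of the 662 kept miRNAs were called higher, and in all 10 the d/d libraries lay above every fl/fl library, where 34.9% of kept miRNAs did so. The median difference of all kept miRNAs was 0.02. These are bulk RNA samples, in which fewer cells making a miRNA and less of it per cell cannot be told apart.

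MiR-127-3p, the most abundant, had 286909.7, 278049 and 309264 normalized counts in d/d MEF, against 79155, 62701 and 67152 in fl/fl MEF. That is a log2 difference of 2.07 ± 0.26 (SE, n = 3 each), with an adjusted p of 7.07e-05 in limma. Its lowest d/d library lay far above its highest fl/fl library, and the d/d libraries lay close together. The other arm of the hairpin, miR-127-5p, had 3762, 3537 and 4276 in d/d MEF, against 924, 773 and 778 in fl/fl MEF, a log2 difference of 2.22 ± 0.30. Both arms of miR-127 were thus higher by a like amount, though the 5p arm is far rarer.

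MiR-433-3p had the largest difference of the group. It stood at 35178, 33504 and 31514 in d/d MEF, against 5852, 4964 and 5544 in fl/fl MEF, which is 6.13-fold (log2 2.62 ± 0.30, limma adjusted p 4.24e-05). MiR-337-5p, from the first hairpin of the row, had 72492, 65101 and 66164 in d/d MEF, against 12169, 11629.6 and 12408 in fl/fl MEF. It was 5.62-fold higher in d/d MEF (log2 2.49 ± 0.24), although its hairpin lies outside the GENCODE model of Rtl1. The same holds for the rarest member, miR-665-3p, which had 206, 186 and 195 in d/d MEF, against 45.0, 25.2 and 38.1 in fl/fl MEF (log2 2.44 ± 0.47, limma adjusted p 0.00125).

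The arms of miR-434 were read at like levels, and both were higher in d/d MEF. MiR-434-5p had 148832, 148135 and 156824 in d/d MEF, against 32272, 26799 and 26344 in fl/fl MEF (log2 2.42 ± 0.20, limma adjusted p 6.85e-06). MiR-434-3p had 100428, 91549 and 76879 in d/d MEF, against 17511, 15286 and 15385 in fl/fl MEF (log2 2.47 ± 0.28). Neither arm overlapped between the groups, and the SE of miR-434-5p was the smallest of the 10 in this comparison. MiR-431-5p, miR-136-3p and miR-136-5p differed by log2 2.08 ± 0.35, 2.24 ± 0.32 and 2.02 ± 0.28. MiR-431-3p, the other arm of miR-431 and no member, differed by log2 2.21. MiR-337-3p, the other arm of miR-337 and also no member, differed by log2 1.93 ± 1.05 and did not pass (limma adjusted p 0.138). The other arms of miR-433 and miR-665 did not reach the minimum mean in this set.

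**Figure D2:**
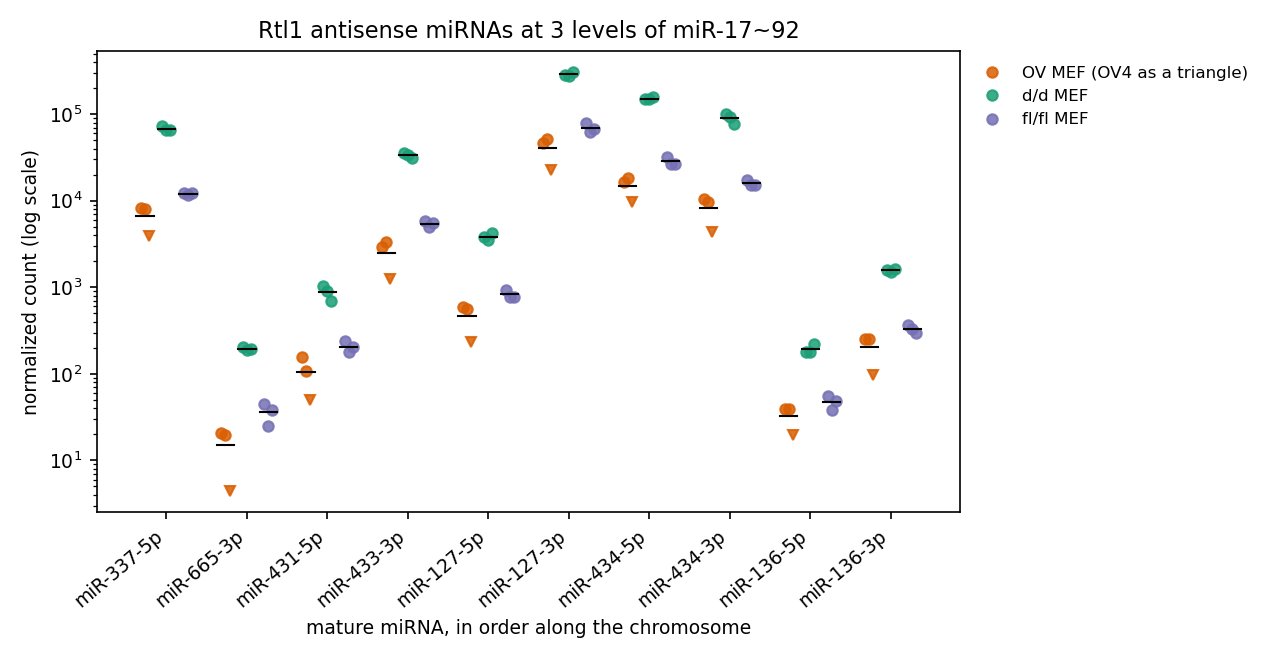
Normalized counts (log axis) of the 10 miRNAs in OV, d/d and fl/fl MEF, in order along the chromosome; points are libraries, with OV4 as a triangle, and black lines are means of 3. In d/d MEF every point lies above all OV and fl/fl points of the same miRNA, and OV4 lies lowest for each miRNA.

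In OV MEF the group lay below fl/fl MEF. With limma 8 of 10 passed as lower, where 15.7% of kept miRNAs were called lower, and the median log2 difference was −0.97 against −0.07 for all kept miRNAs. The OV libraries lay below every fl/fl library in 9 of 10, where 24.2% of kept miRNAs did so. The exception was miR-136-5p. How many members passed depended on the setting more than in any other comparison: 3 did in the spike-in scaled table, 4 with edgeR and 4 with only the 6 libraries compared. Leaving out OV4 kept 8 of 10 as lower with a median log2 difference of −0.61, while 3 passed without FL3, 5 without FL4 and 2 without FL5.

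MiR-434-5p and miR-433-3p passed in each alternative tried, with highest adjusted p-values of 0.0247 and 0.0456. MiR-434-5p had 16277, 18278 and 9752 normalized counts in OV MEF, against the fl/fl values given above, a log2 difference of −0.99 ± 0.20 with a limma adjusted p of 0.00504. MiR-433-3p had 2938, 3375 and 1235 in OV MEF and differed from fl/fl MEF by log2 −1.24 ± 0.30 (limma adjusted p 0.0128). In both, OV4 was the lowest library, and OV1 and OV2 also lay below every fl/fl library. Without OV4 the log2 differences were −0.72 and −0.79.

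MiR-127-3p had 46380.5, 52270.5 and 22613 normalized counts in OV MEF, against 79155, 62701 and 67152 in fl/fl MEF. Its log2 difference was −0.87 ± 0.26 (limma adjusted p 0.0282), and −0.49 without OV4, and it lost its call in 6 of 15 alternatives. MiR-127-5p had 589, 567 and 232 in OV MEF and a log2 difference of −0.95 ± 0.30, or −0.51 without OV4, and also lost its call in 6 of 15 alternatives. In each arm of miR-127 the OV libraries lay below fl/fl, and OV4 lay lowest by far. MiR-337-5p with 8271, 8034 and 3934 and miR-434-3p with 10408, 9766 and 4303 in OV MEF differed from fl/fl MEF by log2 −0.92 ± 0.24 and −1.08 ± 0.28, and each lost its call in 2 of 15 alternatives. Without OV4 their log2 differences were −0.57 and −0.67.

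The low-abundance members miR-665-3p and miR-431-5p gave the widest errors. MiR-665-3p had 20.8, 19.5 and 4.39 normalized counts in OV MEF, against 45.0, 25.2 and 38.1 in fl/fl MEF, a log2 difference of −1.43 ± 0.47 that was −0.77 without OV4, and it lost its call in 6 of 14 alternatives. MiR-431-5p had 155, 109 and 49.4 in OV MEF, against 239, 178 and 201 in fl/fl MEF, with a log2 difference of −1.11 ± 0.35, or −0.65 without OV4, and lost its call in 6 of 15. These members lay below fl/fl in each OV library, with OV4 far below OV1 and OV2. The miR-136 arms did not pass: miR-136-3p had 253, 255 and 96.7 in OV MEF, against 370.4, 328.7 and 299.96 in fl/fl MEF (log2 −0.85 ± 0.32, limma adjusted p 0.0668). MiR-136-5p had 39.7, 38.9 and 19.8 in OV MEF, against 55.2, 37.8 and 48.1 in fl/fl MEF, where OV1 and OV2 overlapped the fl/fl libraries (log2 −0.56 ± 0.28, limma adjusted p 0.142). Without OV4 the differences of miR-136-3p and miR-136-5p were −0.38 and −0.24.

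OV and d/d MEF, the ends of the miR-17~92 range, differed most. All 10 miRNAs were lower in OV MEF by limma, where 25.7% of kept miRNAs were called lower. For all 10 the OV libraries lay below every d/d library, and for 29.3% of kept miRNAs they did so. Log2 differences ran from −2.58 for miR-136-5p to −3.87 for miR-665-3p, with a median of −3.30, and −2.90 without OV4. MiR-127-3p was 7.66-fold lower in OV MEF (log2 −2.94 ± 0.26, limma adjusted p 3.93e-06) and miR-433-3p 14.5-fold lower (log2 −3.85 ± 0.30, limma adjusted p 2.03e-06). Without OV4 these log2 differences were −2.56 and −3.40, and those of the 10 ran from −2.26 for miR-136-5p to −3.40 for miR-433-3p. This comparison uses the same OV and d/d libraries as the comparisons with fl/fl, so it is no further evidence on them.

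Scaling by the added spike-ins moved these differences without turning any. It shifted the median of all miRNAs by 0.14 in OV and by −0.41 in d/d MEF, each against fl/fl MEF, by 0.57 in OV against d/d MEF and by −0.48 with miR-290~295 against Empty. With spike-in scaling the members' medians were −0.83, 1.90, −2.73 and −1.64 in the same order, and the members kept their call in the last 3.

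**Figure D3:**
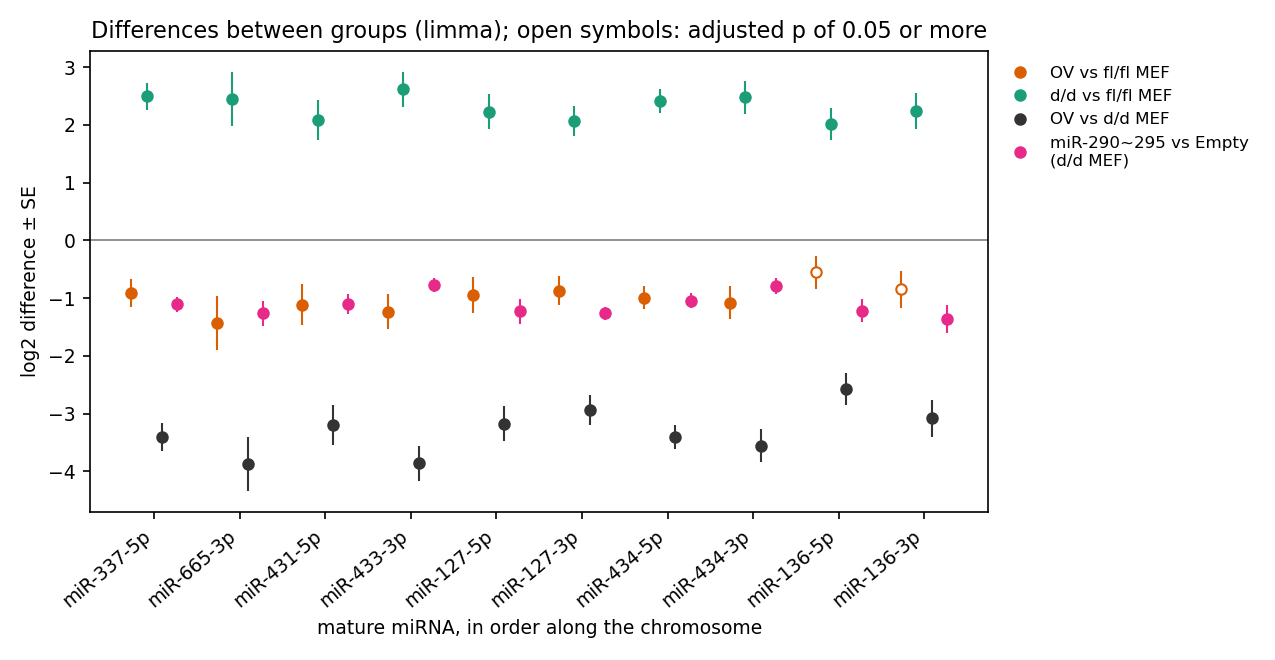
Log2 differences of the 10 miRNAs (limma, bars are SE) in the 4 MEF comparisons; filled symbols have an adjusted p below 0.05, open ones 0.05 or more. All points of d/d against fl/fl lie above 2, all of the other 3 comparisons lie below 0, and the open symbols are the miR-136 arms in OV against fl/fl.

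In d/d MEF that received miR-290~295, all 10 Rtl1 antisense miRNAs were lower than with the empty plasmid, by 1.70 to 2.57 times. All 10 passed limma, where 22.3% of the 840 kept miRNAs were called lower. For all 10 the miR-290~295 libraries lay below every Empty library, and for 26.1% of kept miRNAs they did so. Log2 differences ran from −0.77 for miR-433-3p to −1.36 for miR-136-3p, with a median of −1.16 against 0.02 for all kept miRNAs. Both groups were d/d, so by label the miR-17~92 cluster was deleted on both sides of this comparison. Some reads of its products remained, and fewer with miR-290~295. MiR-17-5p had a mean of 4.28 normalized counts, against 31.1 with Empty (log2 −2.69, limma adjusted p 0.00195). MiR-92a-3p had 147 against 711 (log2 −2.25, limma adjusted p 9.28e-05). The part of these products in the members' differences was not tested.

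MiR-127-3p had 335502, 390653 and 369712 normalized counts with miR-290~295, against 836531, 890923 and 901139 with Empty. The log2 difference was −1.26 ± 0.12 (limma adjusted p 6.94e-05), and the libraries of each group lay close together. MiR-127-5p had 4336, 5559 and 4604 with miR-290~295, against 8091, 11788 and 15019 with Empty, where the Empty libraries lay far apart and E1 was lowest. Its log2 difference was −1.23 ± 0.22 (limma adjusted p 0.00249).

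MiR-433-3p and miR-434-3p moved least. MiR-433-3p had 39449, 41975 and 46699 with miR-290~295, against 72438, 73755 and 71214 with Empty (log2 −0.77 ± 0.12, limma adjusted p 0.0014). MiR-434-3p had 96516, 113047 and 114311 with miR-290~295, against 209234, 186856 and 165041 with Empty (log2 −0.79 ± 0.14). Neither overlapped between the groups, and they were the only members with a log2 difference smaller than 1 in size. The other arm, miR-434-5p, had 215888, 211988 and 231041 with miR-290~295, against 401177, 523509.7 and 438711 with Empty (log2 −1.04 ± 0.13).

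The remaining members differed by more than 2 times each. MiR-337-5p had 52997, 60765 and 63779.6 with miR-290~295, against 114851, 130643 and 135672 with Empty (log2 −1.10 ± 0.13). MiR-136-3p had 1739.7, 2751 and 2048 with miR-290~295, against 3976, 6130.4 and 6843 with Empty (log2 −1.36 ± 0.24), and E1 was the lowest Empty library. MiR-136-5p, miR-431-5p and miR-665-3p, all of low level, differed by log2 −1.22 ± 0.21, −1.11 ± 0.17 and −1.26 ± 0.21. E1 was the lowest Empty library for each of these too, without reaching the miR-290~295 libraries.

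**Figure D4:**
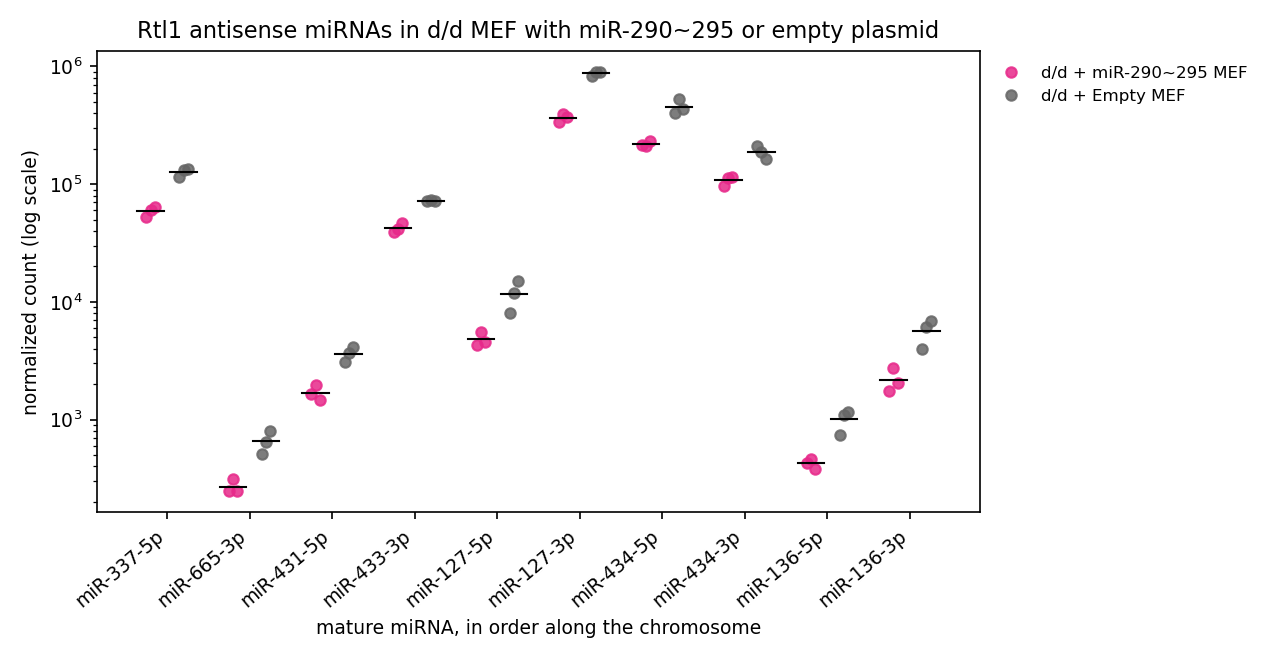
Normalized counts (log axis) of the 10 miRNAs in d/d MEF with miR-290~295 or with the empty plasmid, in order along the chromosome; points are libraries and black lines are means of 3. Each miR-290~295 point lies below all Empty points of the same miRNA.

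Fibroblast and mesenchymal marker miRNAs (miR-199a, miR-214, miR-143, miR-145a, miR-21a and miR-31, 7 mature forms) were all above 0 in each MEF library. In the miR-17~92 set their summed level without miR-21a-5p, the most abundant, ran from 1115699 to 1344759 in OV, from 1272787 to 1517808 in d/d and from 1176584 to 1472494 in fl/fl MEF, so the groups overlapped. Of the 7, limma called 0 higher and 2 lower in OV, and 1 higher and 2 lower in d/d, each against fl/fl MEF. In the other set the sum ran from 1843390.4 to 2126782 with miR-290~295, against 2960092 to 4227375 with Empty, and 5 of 7 markers were lower and 1 higher by limma. Their part in the lower Rtl1 antisense miRNAs with miR-290~295 was not tested. Muscle markers summed to between 24141 and 30769.7 normalized counts in OV, 18160.3 and 21650.3 in d/d and 35575 and 35874 in fl/fl MEF, with 2 of 2 kept lower in d/d than in fl/fl MEF by limma. They summed to between 44534 and 52494 with miR-290~295, against 62607 and 83554 with Empty, with 1 of 2 kept lower. Epithelial markers summed to between 69.2 and 78.4 in OV, 35.6 and 57.4 in d/d and 201 and 207 in fl/fl MEF, and to at most 155 in the other set. Of the 3 kept, limma called 1 higher and 1 lower in OV, and 1 higher and 2 lower in d/d, each against fl/fl MEF. With miR-290~295 it called 1 higher and 1 lower than with Empty. B cell and blood markers summed to at most 20099.9 and neural markers to at most 32106 in any MEF library. Of the 2 kept in each of these lists, limma called 1 lower in d/d than in fl/fl MEF and 0 higher. In OV against fl/fl MEF it called 1 neural marker lower and 0 blood markers. With miR-290~295 against Empty it called 0 in either list. The part of these lists in the members' differences was not tested either.

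The other miRNAs of the Dlk1-Dio3 locus moved with the group in MEF. Of 74 kept, 73 were higher in d/d than in fl/fl MEF with a median log2 difference of 2.71, and 32 were lower in OV than in fl/fl MEF, 0 higher, with a median of −0.90, or −0.53 without OV4. The count of 32 was 9 in the spike-in scaled table, and leaving out 1 fl/fl library lowered it to 8 without FL3, 20 without FL4 and 11 without FL5, while it was 52 without OV1. With miR-290~295, 67 of 80 were lower than with Empty, with a median of −1.03. Among all kept miRNAs outside the group, those whose centred log2 profile over the 9 libraries of the miR-17~92 set was closest to the mean profile of the 10 were miR-411-5p, miR-382-5p, miR-409-5p, miR-381-3p and miR-380-5p, at root mean square differences of 0.0776 to 0.149. All 5 belong to the locus, as do the nearest 20 when other arms of the 7 hairpins are counted in. Over the 6 libraries of the miR-290~295 set the closest were miR-299a-3p, miR-541-3p, miR-493-5p, miR-152-3p and miR-377-3p, and 16 of the nearest 20 belong to the locus. MiR-152-3p, which does not, fell with miR-290~295 (log2 −1.19, limma adjusted p 9.19e-04) but had a log2 difference of 0.26 in d/d against fl/fl MEF, where the 10 members had at least 2.02.

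Within the group the members closest to their own mean profile over the miR-17~92 set were miR-127-5p and miR-337-5p, with root mean square differences of 0.0933 and 0.117, and those farthest were miR-665-3p and miR-136-5p with 0.335 and 0.328. MiR-665-3p and miR-136-5p also have the fewest reads. MiR-433-3p was the farthest of the abundant members, at 0.236. Its share of the group's normalized counts was 3.34% ± 0.370 in OV, 5.22% ± 0.305 in d/d and 4.10% ± 0.199 in fl/fl MEF, and 5.31% ± 0.271 with miR-290~295 against 4.17% ± 0.190 with Empty (SD, n = 3 each). The share of miR-127-3p ran the other way, with 54.8% ± 1.46 in OV, 45.5% ± 1.97 in d/d and 52.2% ± 1.09 in fl/fl MEF. Shares within the group were not tested.

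Both arms of miR-127, miR-434 and miR-136 are members, so the 3p to 5p ratio of each could be read within a library, where scaling cancels. The hairpins are shown because the arms, in capitals, come from opposite sides of the same fold; they are given 5′ to 3′ from RefSeq, GRCm38.p6, plus strand.
Mir127 (chr12:109592846-109592915): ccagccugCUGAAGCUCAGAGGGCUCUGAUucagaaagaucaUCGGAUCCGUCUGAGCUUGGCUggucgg
Mir434 (chr12:109594506-109594599): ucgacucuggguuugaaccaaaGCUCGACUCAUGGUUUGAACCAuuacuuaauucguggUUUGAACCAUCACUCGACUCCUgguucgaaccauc
Mir136 (chr12:109595327-109595388): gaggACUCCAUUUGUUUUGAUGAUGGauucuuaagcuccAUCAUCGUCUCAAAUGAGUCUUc
MiR-127 was read almost only as its 3p arm. Its ratios were 78.7, 92.3 and 97.6 in OV, 76.3, 78.6 and 72.3 in d/d and 85.7, 81.1 and 86.3 in fl/fl MEF. The d/d ratios lay just below the fl/fl ratios, a difference in mean log2 of −0.15. MiR-136 also favoured 3p, with 6.37, 6.56 and 4.89 in OV, 8.82, 8.37 and 7.44 in d/d and 6.70, 8.70 and 6.23 in fl/fl MEF, and the OV ratios lay below those of d/d (mean log2 difference −0.51). MiR-434 leaned to 5p, with 3p to 5p ratios of 0.639, 0.534 and 0.441 in OV, 0.675, 0.618 and 0.490 in d/d and 0.543, 0.570 and 0.584 in fl/fl MEF, which overlapped.

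With miR-290~295 the mean ratios were 76.0 ± 5.16 for miR-127, 0.492 ± 0.0432 for miR-434 and 5.11 ± 0.926 for miR-136, against 79.7 ± 22.0, 0.418 ± 0.0900 and 5.59 ± 0.277 with Empty (SD, n = 3 each). The ranges overlapped for all 3 hairpins. Over the 12 tests of 3 hairpins in 4 comparisons, the two-sided exact permutation test gave its smallest possible p of 0.1 in 2, miR-127 in d/d against fl/fl and miR-136 in OV against d/d MEF, and every Benjamini-Hochberg value was at least 0.6. No difference in arm use was therefore shown, and with 3 libraries against 3 none could pass 0.05.

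**Figure D5:**
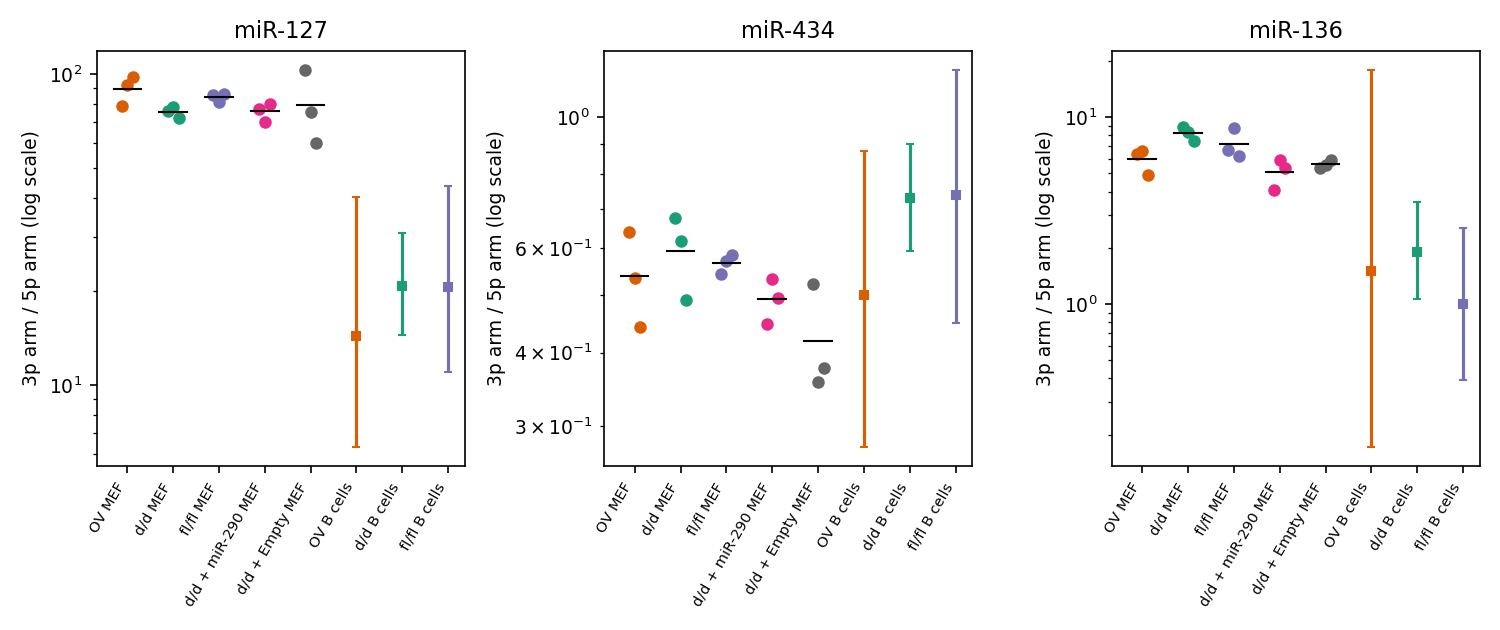
Ratio of 3p to 5p arm reads (log axes) of miR-127, miR-434 and miR-136 in each library by group; circles are MEF libraries with black lines at the mean of 3, and squares are single B-cell libraries with exact 95% binomial intervals. MEF groups lie close together for each hairpin, while miR-127 in all 3 B-cell libraries lies below every MEF library.

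In B cells the Rtl1 antisense miRNAs were rare, and they were higher in d/d than in fl/fl cells. Each B-cell group has 1 library, so there is no replicate check and no test, and intervals cover counting error only. MiR-127-3p had 86 reads in OV, 644 in d/d and 207 in fl/fl cells, or 115, 511 and 195 normalized counts. In d/d cells 8 of 9 listed members were at least 2 times above fl/fl cells, as were 16.2% of the 476 kept miRNAs, and 0 were 2 times below, as were 19.3%. MiR-431-5p, among those 8, and miR-136-5p, which was not, have means below 10. They lie outside the kept miRNAs behind these shares. Of the 33 other Dlk1-Dio3 miRNAs listed in B cells, 13 were kept, and all 13 were also at least 2 times above fl/fl cells. The difference was thus not particular to the members. The mean behind this filter includes the d/d library, so at such low counts a miRNA can be kept through its d/d value. The ratios of the 9 listed members had a median of 2.76, against 0.991 for all kept miRNAs.

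The largest ratios were those of miR-434-5p, 4.47 (223 reads in d/d and 42 in fl/fl cells, exact 95% interval 3.20 to 6.38), and miR-434-3p, 4.43 (interval 3.00 to 6.73). MiR-433-3p followed with 4.11, from 200 and 41 reads (interval 2.92 to 5.90). MiR-127-3p had a ratio of 2.62 (interval 2.24 to 3.08) and miR-337-5p one of 2.73. MiR-136-5p, with 19 reads in d/d and 11 in fl/fl cells, was the 1 member below the 2-fold line, at 1.45 with an interval that includes 1. MiR-431-3p, no member, went the other way with 1 read in d/d and 5 in fl/fl cells. Its ratio was 0.168, and the interval includes 1.

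Mesenchymal marker miRNAs were 7 of 7 above 0 in each B-cell library. Without miR-21a-5p the 6 other markers summed to 1960 normalized counts in OV, 8283 in d/d and 2039 in fl/fl cells, a d/d ratio of 4.06, beside 3.11 for the members' total. Muscle markers, 2 of 3 listed and above 0, summed to 32.2 in OV, 184 in d/d and 55.6 in fl/fl cells. MiR-143-3p alone had 1088 in OV, 5266 in d/d and 1303 in fl/fl cells. With miR-21a-5p included the sum was 1.14 times that of fl/fl cells, and the B cell and blood markers summed to 141882 in OV, 151275 in d/d and 146843 in fl/fl cells. The part of mesenchymal or muscle RNA in the d/d B-cell values was not tested.

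In OV B cells none of the 9 lay 2 times above fl/fl cells, as 6.72% of kept miRNAs did, and 3 lay 2 times below, as 6.93% did. Those 3, miR-431-5p, miR-136-5p and miR-136-3p, had 1, 2 and 3 reads in OV cells, and their intervals include 1. Only miR-136-3p among them has a mean of at least 10 and so belongs to the kept miRNAs behind these shares. MiR-127-3p had the only ratio whose interval excludes 1, 0.590 (0.454 to 0.763). MiR-434-5p was the only member above fl/fl cells, at 1.35 (0.855 to 2.14). For most members a difference between OV and fl/fl B cells was not detectable at this depth. Of the 13 other Dlk1-Dio3 miRNAs kept in B cells, 2 lay 2 times below fl/fl cells and 0 lay 2 times above.

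The arm ratio of miR-127 was lower in B cells than in any MEF library. It was 14.3 (exact 95% interval 6.32 to 40.1, 86 and 6 reads) in OV, 20.8 (exact 95% interval 14.5 to 30.8, 644 and 31 reads) in d/d and 20.7 (exact 95% interval 11.0 to 43.8, 207 and 10 reads) in fl/fl cells, while the lowest MEF library, E3, had 60. MiR-136 likewise had 1.5 (exact 95% interval 0.172 to 18, 3 and 2 reads) in OV, 1.89 (exact 95% interval 1.06 to 3.50, 36 and 19 reads) in d/d and 1.00 (exact 95% interval 0.393 to 2.54, 11 and 11 reads) in fl/fl cells, where the lowest MEF library had 4.09 and the OV interval spans it. For miR-434 the B-cell ratios of 0.5, 0.731 and 0.738 in OV, d/d and fl/fl cells had intervals that reach into the MEF range. These differences were not tested.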

How the data were processed

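Mature miRNAs were measured by small RNA sequencing. Per the labels' protocols, spike-ins were added to total RNA, small RNAs were gel-purified and the NEBNext small RNA kit was used. The deposited values are signals: for each mature miRNA, the authors' read count after division by a library's size factor, and DESeq2 is named, without a version, in the submitters' processing notes. The sources used here name no aligner, counting tool, miRNA annotation or build. In 100% of values whole reads were recovered within 0.0001. The 33 columns of deposited rlog values were not used.

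The main test was limma 3.58.1 (R 4.3.3, trend option) on log2-transformed normalized counts, with 1 added, from the tables without spike-in scaling. MiRNAs with a mean of at least 10 were kept, and p-values were adjusted by Benjamini-Hochberg over all of them, with a threshold of 0.05. All 9 MEF libraries of the miR-17~92 set shared 1 estimate of the spread. Each MEF set and the B cells were handled apart. Arm ratios were compared by two-sided exact permutation tests. B cells, with 1 library per group, were described by a 2-fold line and exact 95% intervals. The limma, edgeR 4.0.16 and DESeq2 1.42.0 fits were tested on simulated data. The members, lists and marker miRNAs were chosen with earlier results of these data known. Every member, the other arms of their hairpins, the nearest 5 miRNAs and 3 miRNAs of the targeted clusters could be named. Intervals cover counting error only.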

Additional observations from a re-analysis of the deposited data

How the results depend on the processing

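In the MEF comparisons other than OV against fl/fl, all 10 members kept their direction and their call under every alternative tried, except that 2 members were not tested at a minimum mean of 100 in the miR-17~92 set. In OV against fl/fl MEF the count of 8 was 3 in the spike-in scaled table, 4 with edgeR and TMM on whole reads and 4 with only the 6 libraries compared, and 2 to 9 when 1 library was left out. The cause was not tested. The other alternatives (pseudocounts of 0.5 and 5, no minimum, a minimum mean of 100, re-centred medians and DESeq2) gave 7 to 9. All members stayed lower throughout. The 32 other miRNAs of the locus that were lower in this comparison became 9 with spike-in scaling, 55 with re-centred medians, 15 with only the 6 libraries, and 8 to 52 when 1 library was left out. Over members and alternatives in this comparison, 28 values lost a call and 4 gained one.

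When 1 library was left out, the log2 difference in 3p to 5p ratio changed sign in 4 cases, none past any threshold: it ran from −0.22 to 0.048 for miR-434 in OV against fl/fl, from −0.039 to 0.19 for miR-434 in d/d against fl/fl, and, with miR-290~295 against Empty, from −0.22 to 0.17 for miR-127 and from −0.26 to 0.0045 for miR-136.

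In the miR-290~295 set the replicate numbers did not pair the libraries (correlations of same-numbered libraries 0.28, 0.01 and −0.26). With the replicate block 10 of 10 members were still lower, beside 125 miRNAs higher and 173 lower in all, against 140 and 187 without it. Not every library correlated best with its own number. In the miR-17~92 set no paired analysis was possible, because the OV and fl/fl columns carry no replicate numbers of the labels. The members with the fewest reads were miR-665-3p and miR-136-5p in MEF, and in B cells 2 of 9 had a mean under 10.

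Over all kept miRNAs the spike-in scaled table called 112 higher and 44 lower in OV against fl/fl MEF (103 and 104 without it), 147 and 283 when d/d was set against fl/fl MEF (203 and 183), 333 and 120 in OV against d/d (177 and 170), and 56 and 331 with miR-290~295 (140 and 187). Re-centring the medians gave 83 and 153 for OV and 162 and 245 for d/d MEF, each against fl/fl. Leaving out FL5 gave 72 higher and 52 lower in OV against fl/fl MEF.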
